A study of Mus musculus with 221 samples.

Results

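The yolk sac plexus haemogenic endothelium (HE YSP) was compared between its early and its late state. Haemogenic endothelium is the endothelium that gives rise to blood, and the plexus is the capillary network of the yolk sac. The members were the cells labelled HE-YSP (early), cluster b2 of the study, and HE-YSP (late), cluster b3, whose total estimated count was at least 17595. That limit is the median total of the series' 221 cells less 1 scaled median absolute deviation. It was passed by 25 of the 26 early cells and by 24 of the 27 late cells, so that 49 of the 221 cells entered. The cells were sorted from freshly harvested mouse yolk sac of Runx1b-RFP and Gfi1-GFP reporter embryos, without treatment. The reporter lines were of strain C57BL/6JOlaHsd and were mated with Hsd:ICR (CD-1) females. Both groups were sorted as RUNX1+, GFI1+/-, KIT+, CD31+, CD41- and CD45-. The full-length Smart-seq2 cDNA of each cell was read on nanopore flow cells in 3 runs, each holding cells of both groups.

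The 2 groups differed in stage and in sort. The early group held 10 cells from E9.0, 2 from E9.5 and 13 from E10.5, and the late group held 6, 11 and 7. The sort label was HE_Runx1 for 22 early and 14 late cells and HE_Gfi1 for 3 early and 10 late cells. On 4 plates lay 3, 3, 11 and 8 early cells and 1, 10, 7 and 4 late cells, with 2 further late cells on another plate. Cells of different stages come from different embryos, and the labels name no embryo for any cell. Each group was therefore 1 sample, no p-value was computed, and the 95% intervals below cover counting error only. The study drew clusters b2 and b3 from short reads of a larger set of Smart-seq2 cells that these cells belong to, so the differences described here are a description of those clusters and are no independent evidence for them. Values are given beside those of the next population of the same trajectory where they help to place them: 20 cells of cluster p2, early yolk sac haematopoietic progenitors labelled as EMP skewed (erythro-myeloid progenitors). The plate with 10 late cells also held 13 of these 20 cells, and the part of the plate in the results was not tested.

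In the endothelial to haematopoietic transition a flat endothelial cell loses its junctions, its basement membrane and its attachment, rounds up and takes on a blood programme. The transcription factor RUNX1 opens that programme, and GFI1 and GFI1B repress endothelial genes with it. The yolk sac plexus carries venous and scavenger endothelial genes such as *Lyve1* and *Stab2*, and its haemogenic endothelium is a source of erythro-myeloid progenitors.

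Early cells had 18807 to 62578 estimated counts (median 33354), and late cells had 18131 to 84052 (median 31776). Thinned to 17000 counts, a median of 3339 genes was detected per early cell and of 3475 per late cell (unthinned, 4101 and 4106). Mitochondrial genes took 2.67% of the early and 2.63% of the late counts. Globin and macrophage RNA was near 0: *Hba-a1* was at 12.3 CPM in early and 0 in late cells, *Hbb-bt* at 17.6 and 0, and *C1qa*, *C1qb*, *C1qc*, *Cx3cr1* and *Adgre1* had 0 in both groups. The summed CPM (counts scaled to 1000000 per group or cell) of the 12 mesenchyme markers was 0 in the median cell of either group and reached 304 in the highest early and 71.7 in the highest late cell. The 10 macrophage markers also had a median of 0, with highest cells of 307 and 52.6. The 17 yolk sac endoderm markers summed to 191 CPM in early and 14.6 CPM in late cells, of which *Sox17*, which endothelium also expresses, was the one member tested, while *Apoa1*, *Apoa4* and *Ttr* had 0 counts in both groups and *Afp* had 1 late count. The part of these markers in the results was not tested. *Xist* without a Y-linked gene was found in 7 early and 10 late cells and a Y-linked gene without *Xist* in 10 and 9, with no cell holding both.

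The labelled identity was checked against the genes of the sort and of the trajectory. *Pecam1*, which encodes CD31, was at 187 CPM in the early group (159 to 218 by the exact Poisson interval of the summed counts) and at 124 CPM in the late group (101 to 151). Single early cells ran from 0 to 518 CPM with a median of 223, and late cells from 0 to 334 with a median of 122, so the groups overlapped. *Ptprc*, which encodes CD45, had no count in either group, which allows up to 3 counts in each. *Itga2b*, which encodes CD41, had 44 early and 28 late counts. *Kit*, the stem cell factor receptor, was at 59.9 CPM in early and 71.9 CPM in late cells, a log2 ratio of late over early of 0.26 (-0.30 to 0.83). *Runx1* itself was sparse, with 1 early count and 16 late counts, too few to be tested. *Gfi1* had 14 and 19 counts. *Vwf* and *Cd24a*, which mark the arterial yolk sac trajectory, had 3 and 17 and 0 and 2 counts. *Mcam*, a surface protein of endothelial cells, had 39 early counts in 7 cells and none in late cells.

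Genes with at least 50 counts over both groups were tested, 4278 in all. A gene was called when its CPM differed at least 2-fold and in the same direction in each of the 3 runs. By this rule 274 genes were higher in late HE YSP (6.4% of those tested) and 300 were higher in early HE YSP (7.01%). The median log2 ratio of the genes tested was 0.10. Of the genes called, 240 and 275 had the same direction within E9.0 and within E10.5 cells. With each cell left out in turn, the counts stayed between 254 and 301 and between 280 and 318. Of the 274 genes, 131 were at least as high in p2 as in late HE YSP, and of the 300 genes, 207 were at or below the late level in p2. Because late HE YSP is a term of both comparisons, those shares are given as a description.

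**Figure D1:**
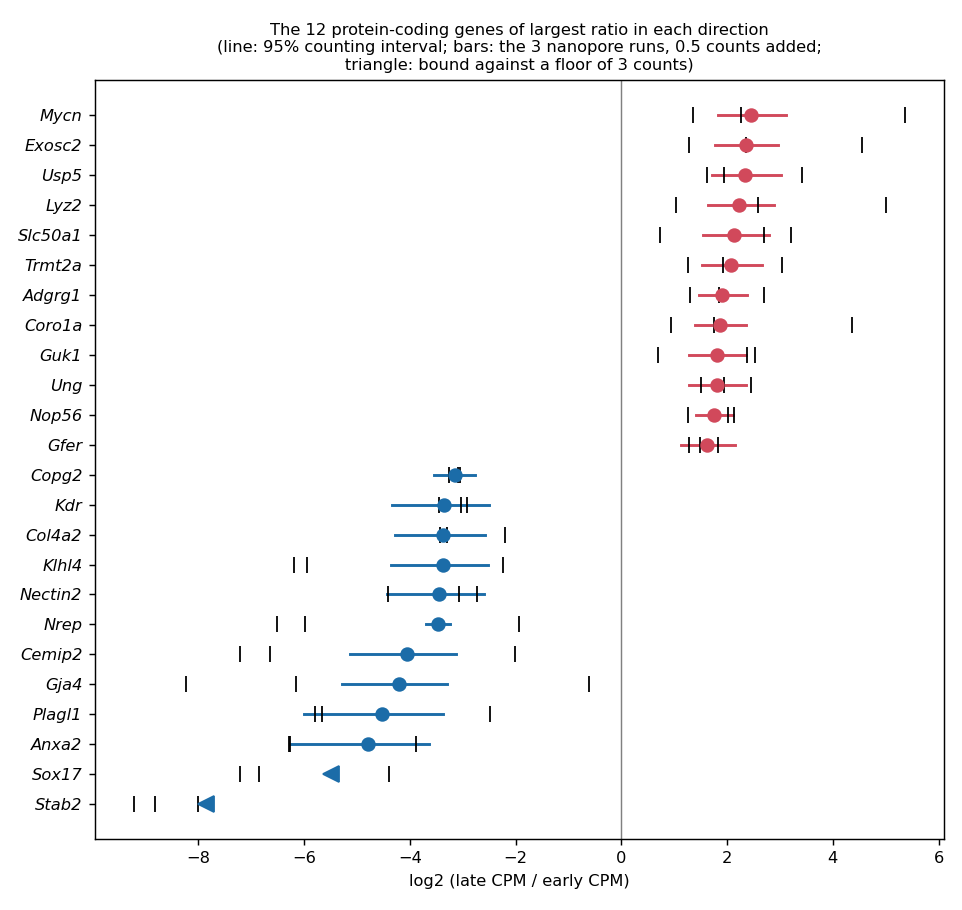
Log2 ratio of late over early CPM (x axis) for the 12 protein-coding genes with the largest ratio in each direction (rows). Points are the summed counts of 25 early and 24 late cells, lines the 95% counting intervals and black bars the 3 nanopore runs. Triangles are ratios against a floor of 3 counts for genes with no late count. Stab2 and Sox17 lie furthest to the left and Mycn furthest to the right. The runs of every gene shown fall on its side of 0, as the call rule requires.

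Endothelial genes were lower in late cells. Of the 40 pan-endothelial genes listed, 28 were tested, 19 were called higher in early and 0 higher in late, against 7.01% and 6.4% of all genes, and their median log2 ratio was -1.24. The list summed to 11444 CPM in early, 4002 CPM in late and 1257 CPM in p2 cells. Early cells ran from 5681 to 21393 CPM (median 11407) and late cells from 1420 to 7165 (median 3842). A single early cell lay within the late range, and 20 of the 24 late cells lay below every early cell. *Cldn5*, a tight junction claudin, was between 145 and 7834 CPM in early cells (median 1810) and between 0 and 726 CPM in late cells (median 160). Its summed level was 2008 against 302 CPM, a log2 ratio of -2.73 (-2.93 to -2.54). The runs gave 2136, 2278 and 1656 CPM in early and 158, 265 and 435 CPM in late cells, with no overlap between the groups.

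*Icam2*, an endothelial adhesion molecule, ran from 62.0 to 1865 CPM in early cells (median 774) and from 0 to 624 CPM in late cells (median 30.7), a log2 ratio of -2.21 (-2.48 to -1.95). *Cdh5*, the VE-cadherin of adherens junctions, was at 333 and 110 CPM, a log2 ratio of -1.60 (-1.96 to -1.25). It was detected in 22 of 25 early and 11 of 24 late cells at 17000 counts (24 and 12 unthinned). *Ramp2*, the partner of the adrenomedullin receptor, was still found in each late cell: the lowest early cell was at 856 CPM, the lowest late cell at 167 CPM, and the summed levels were 2025 and 862 CPM.

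*Kdr*, the VEGF receptor, had 127 early and 12 late counts, or 149 against 14.6 CPM. It was detected in 13 early and 3 late cells at 17000 counts (14 and 5 unthinned), and its log2 ratio was -3.35 (-4.34 to -2.50). *Tek*, the angiopoietin receptor, was at 212 and 93.8 CPM, and the difference was smaller, with a log2 ratio of -1.17 (-1.58 to -0.78). *Eng*, a TGF-beta coreceptor, and *Pecam1* were not called, with ratios of -0.60 (-0.98 to -0.23) and -0.59 (-0.96 to -0.22).

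*Sox17*, an endothelial factor of the SOX family, had 139 counts in 13 early cells and none in late cells, so that late cells were at least 44.7-fold lower against a floor of 3 counts over the group. *Sox18* was at 611 and 191 CPM with a log2 ratio of -1.68 (-1.94 to -1.42). *Ets1* and *Ets2*, factors that bind the promoters of endothelial genes, had ratios of -2.14 (-3.02 to -1.34) and -2.19 (-2.67 to -1.74). At 17000 counts *Ets2* was detected in 18 early and 14 late cells (20 and 16 unthinned) and *Ets1* in 14 and 5.

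**Figure D2:**
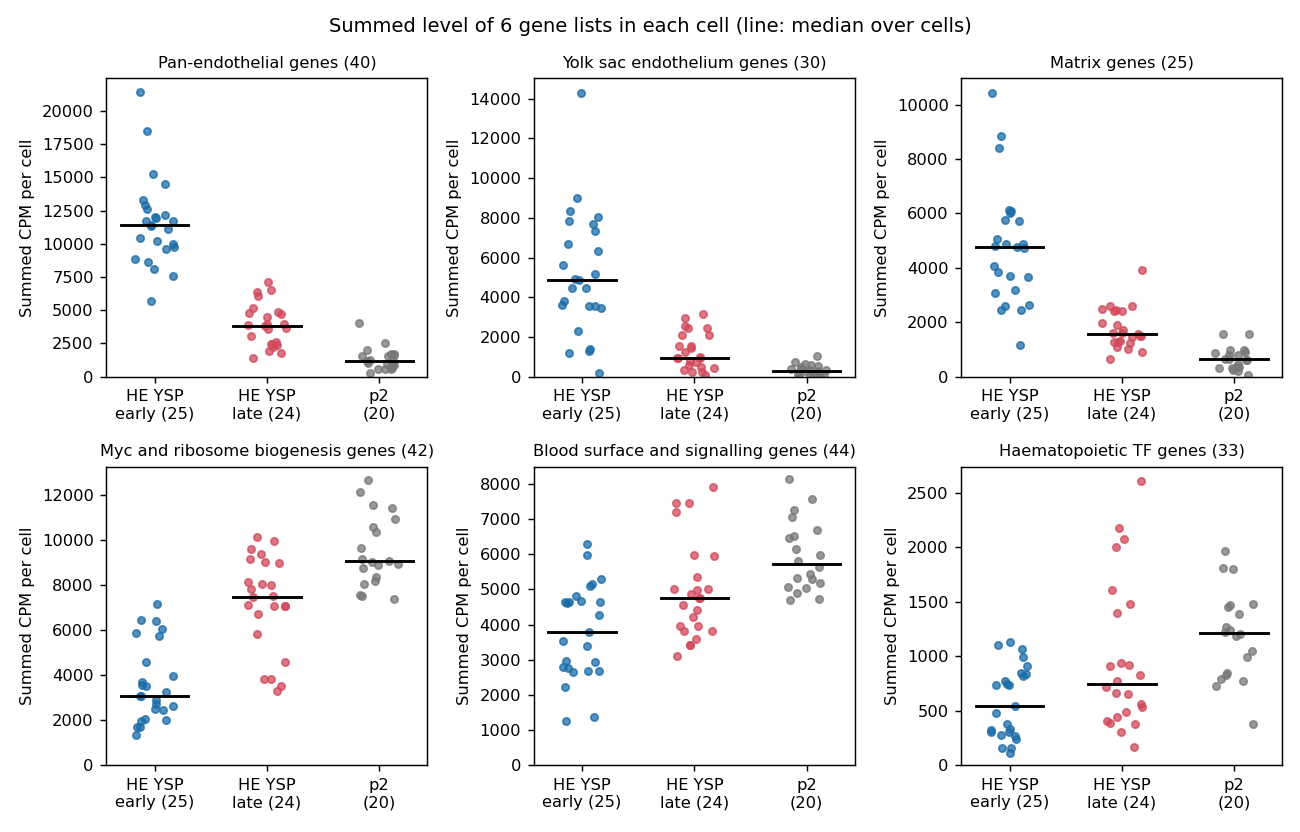
Summed CPM per cell (y axis) of 6 gene lists in 25 early and 24 late HE YSP cells and 20 p2 progenitors. Each point is a cell and each line the median. Endothelial, yolk sac endothelium and matrix lists step down from early to late to p2, and the Myc and ribosome biogenesis list steps up, from a median of 3081 to 7475 and 9043 CPM.

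The yolk sac's own endothelial genes showed a wider spread. Of the study's 30 yolk sac endothelium genes, 15 were tested and 12 were called higher in early (background 7.01%), with a median log2 ratio of -1.76. On which cells this list was chosen is not given in the sources used here, and it is not taken as independent evidence of direction. The list summed to 4865 CPM in early, 1433 CPM in late and 326 CPM in p2 cells. Early cells ran from 163 to 14302 CPM and late cells from 71.7 to 3141 CPM, and 20 of the 25 early cells lay above every late cell.

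*Stab2*, a scavenger receptor for hyaluronan, was found in early cells alone. It had 723 counts in early cells and 0 in late cells, which is at least 232-fold lower against a floor of 3 counts over the group. Among early cells it ran from 0 to 4419 CPM with a median of 204, was found in 18 of 25 cells, and reached 1093, 1145 and 362 CPM in the 3 runs. Its relative *Stab1* was at 129 against 20.7 CPM, a log2 ratio of -2.64 (-3.47 to -1.90). *Colec12*, a scavenger receptor of the collectin family, had 75 early counts in 11 cells and 0 late counts. *Mrc1*, the mannose receptor, fell between these, at 108 and 18.3 CPM.

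*Lyve1*, the hyaluronan receptor that marks the plexus trajectory, was retained further. Early cells ran from 0 to 2534 CPM (median 1228) and late cells from 0 to 1579 (median 246), so the groups overlapped. At 17000 counts 22 early and 19 late cells held it (23 and 19 unthinned). The summed levels were 911 and 414 CPM, a log2 ratio of -1.14 (-1.32 to -0.95), and p2 was at 23.2 CPM. Within E9.0 cells the levels were 1743 and 321 CPM, and within E10.5 cells they were 577 and 548 CPM, so the difference within E10.5 was small. Within E9.5 cells, of which only 2 were early, they were 315 and 337 CPM. *Fcgrt*, the neonatal Fc receptor, was at 332 and 123.03 CPM. It passed 2-fold without being called, since run 3 went from 149 to 185 CPM.

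*Selenop*, a secreted selenium carrier, was at 682 and 180 CPM with a log2 ratio of -1.92 (-2.19 to -1.66). *Lgmn*, a lysosomal protease, was at 181 and 37.8 CPM, and *Npl*, which breaks down sialic acid, at 637 and 278 CPM. *Tcn2*, the cobalamin carrier, was at 343 and 145 CPM.

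Venous and arterial genes were sparse. Of 9 venous genes 6 were tested and 4 were called higher in early (background 7.01%), with a median of -1.39. The called genes included *Aplnr*, the apelin receptor (94.0 and 17.1 CPM), and *Ephb4*, the venous ephrin receptor (67.0 and 19.5 CPM). Of 40 arterial and Notch genes 5 reached 50 counts and 3 were called higher in early (background 7.01%), with 1 ratio above 0 and a median of -4.14. The list median ran from -3.22 to -0.64 over the runs and was -1.69 within E9.0 and -3.09 within E10.5 cells. *Gja4*, the connexin of arterial endothelium, had 191 counts in 12 early cells and 10 counts in 1 late cell, a log2 ratio of -4.20 (-5.29 to -3.29). Its runs were uneven, with 57.0, 179 and 428 CPM in early cells and 36.6, 0 and 0 in late cells. *Nrp1*, a VEGF coreceptor, had 55 and 3 counts. The arterial markers *Dll4* and *Hey1* had no count in either group.

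Matrix genes were lower in late cells. Of 25 basement membrane and matrix genes 7 were tested, 3 were called higher in early (background 7.01%), and the median was -1.56. *Sparc*, a collagen-binding matrix protein, ran from 744 to 5825 CPM in early cells (median 2486) and from 47.8 to 2470 CPM in late cells (median 486). The levels by run were 2757, 2652 and 2264 CPM against 703, 713 and 762 CPM, a log2 ratio of -1.80 (-1.94 to -1.67). *Col4a1* and *Col4a2*, the paired collagen IV chains of the basement membrane, were at 190 and 176 CPM in early and at 42.6 and 17.1 CPM in late cells. These neighbouring genes overlap in the reference annotation, on opposite strands.

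The actin genes differed less in fold and more in amount. The 38 genes summed to 41591 CPM in early and 26221 CPM in late cells, and 20 early cells lay above every late cell. Of 30 tested, 5 were called higher in early (background 7.01%) and 1 higher in late (background 6.4%), and the median was -0.56. *Tmsb4x*, a thymosin that binds actin monomers, was at 10678 against 4473 CPM, a log2 ratio of -1.26 (-1.31 to -1.20). Early cells ran from 3108 to 16234 CPM and late cells from 603 to 9997 CPM. *Tmsb10*, *Flna*, *Msn* and *Cnn3*, which bind or crosslink actin, had ratios of -1.52, -1.62, -1.03 and -1.06. The one gene higher in late was *Coro1a*, the coronin of blood cells.

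Genes of the Myc family and ribosome biogenesis list were higher in late cells. Of its 42 genes 27 were tested, 15 were called higher in late (background 6.4%) and 0 higher in early, and 26 had a ratio above 0. The list also holds *Hspd1*, *Hspe1*, *Odc1* and *Srm*, which are not genes of ribosome assembly. *Hspd1* and *Hspe1* were among those called. The median log2 ratio of the 27 members tested was 1.05, against 0.10 for all genes tested. The list summed to 3449 CPM in early, 6777 CPM in late and 9344 CPM in p2 cells. Early cells ran from 1352 to 7148 CPM (median 3081) and late cells from 3318 to 10096 (median 7475), and 13 of 24 late cells lay above every early cell.

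*Mycn*, a MYC family transcription factor, had the largest ratio of the called genes with at least 100 late counts. It ran from 0 to 181 CPM in early cells (median 0) and from 0 to 621 CPM in late cells (median 145), and was detected in 6 of 25 early and 20 of 24 late cells at 17000 counts (6 and 21 unthinned). The summed levels were 30.6 CPM (19.96 to 44.8) and 167 CPM (140 to 197), a log2 ratio of 2.45 (1.84 to 3.11), and p2 was at 189.8 CPM. The 3 runs were at 26.8, 3.98 and 56.4 CPM in early and at 136, 244 and 148 CPM in late cells, with no overlap. *Myc* itself was not called, at 82.3 and 115 CPM, and stood at 385 CPM in p2.

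*Nop56*, a core protein of box C/D snoRNPs, ran from 0 to 475 CPM in early cells (median 97.1) and from 0 to 1261 CPM in late cells (median 328), a log2 ratio of 1.75 (1.41 to 2.12). *Fbl*, the rRNA methyltransferase fibrillarin, was at 116 and 339 CPM with a ratio of 1.54 (1.21 to 1.89). *Dkc1*, the pseudouridine synthase dyskerin, was at 102 and 286 CPM with 1.49 (1.12 to 1.86). *Hspd1* and *Hspe1*, the mitochondrial chaperonin pair, were at 256 and 27.9 CPM in early and 519.8 and 83.8 CPM in late cells. *Ncl* and *Npm1*, abundant nucleolar proteins, were not called, at 536 and 982 CPM and at 432 and 671 CPM.

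**Figure D3:**
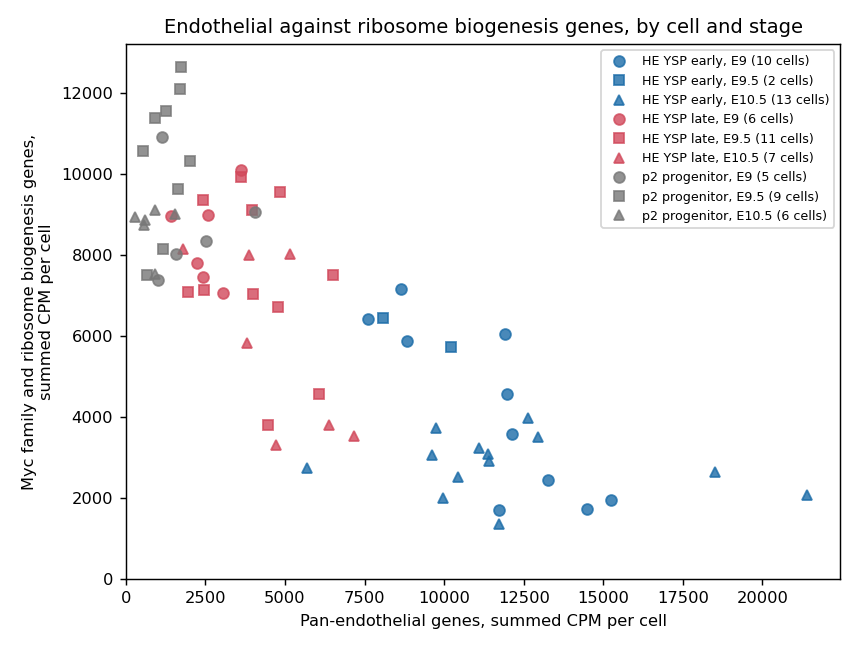
Summed CPM per cell of the pan-endothelial list (x axis) and of the Myc family and ribosome biogenesis list (y axis), by group (colour) and embryonic day (symbol). Early HE YSP cells lie to the right, from 5681 CPM upward, late cells to the left, up to 7165 CPM, and p2 progenitors at the upper left.

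MYC family proteins bind the E-box CACGTG, so the promoters of this list were searched for it because its members moved together. The windows were RefSeq promoters of build GRCm38.p6, 250 bases before to 50 bases after the annotated start, and CACGTG reads the same on both strands. It was present in 7 of the 35 members with a promoter in the table (20%), in 7.24% of all 27025 promoters and in 12.2% of those of the 2574 genes tested that had one. Of the genes called, 16 of 190 higher in late (8.42%) and 16 of 200 higher in early (8%) held it. The 2 shares were close, and the difference was not tested. The called list members with the motif were *Nop2*, *Pes1* and *Hspd1*, and the 30 bases around it are printed with the motif in capitals. The Nop2 site lies at chr6:125131811-125131840 on the plus strand, the Pes1 site at chr11:3963965-3963994 on the plus strand and the Hspd1 site at chr1:55088306-55088335 on the minus strand.
Nop2: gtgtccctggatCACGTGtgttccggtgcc
Pes1: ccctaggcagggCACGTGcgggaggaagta
Hspd1: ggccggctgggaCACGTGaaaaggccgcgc
In late cells *Nop2*, an rRNA methyltransferase, was at 72.2 against 34.3 CPM, and *Pes1*, part of the PeBoW complex of large subunit assembly, at 54.8 against 15.3 CPM. A match of letters is a description and no evidence of binding.

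Blood genes were higher in late cells in part. Of 33 haematopoietic transcription factors 8 were tested and 2 were called, both higher in late (background 6.4%), and the median was 0.41. *Gfi1b*, a transcriptional repressor needed for erythroid and megakaryocyte development, had 4 counts in 2 early cells and 71 counts in 10 late cells. Its levels were 4.70 and 86.5 CPM, a log2 ratio of 4.20 (2.78 to 6.12), with 0, 11.9 and 3.32 CPM in the early and 54.9, 25.5 and 145 CPM in the late runs. *Spi1*, which encodes the myeloid factor PU.1, was at 22.3 and 62.1 CPM with a ratio of 1.476 (0.69 to 2.32), in 5 early and 14 late cells at 17000 counts (7 and 14 unthinned). *Myb* had 5 and 38 counts and fell short of the 50 needed.

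Surface and signalling genes of blood differed gene by gene. Of 45 listed, 44 were in the table and 20 were tested. Of these, 5 were called higher in late (background 6.4%) and 0 higher in early (background 7.01%). Their median was 0.19, close to that of the genes tested. *Adgrg1*, an adhesion receptor of blood stem and progenitor cells, ran from 0 to 329 CPM in early cells (median 25.5) and from 0 to 1053 CPM in late cells (median 219.9). The summed levels were 63.5 and 239 CPM, a log2 ratio of 1.91 (1.47 to 2.37), and p2 was at 468 CPM. Within E10.5 cells they were close, at 65.6 and 72.9 CPM, and within E9.0 cells they were 57.7 and 222 CPM. *Coro1a* was at 57.6, 209.5 and 666 CPM in early, late and p2 cells, with a log2 ratio of late over early of 1.86 (1.40 to 2.35).

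Of 23 myeloid granule and macrophage genes 4 were tested, with a median of 1.10. Of these, 2 were called higher in late (background 6.4%) and 1, *Mrc1*, higher in early (background 7.01%). *Mpo*, myeloperoxidase, had 4 counts in 2 early cells and 63 counts in 12 late cells, or 4.70 and 76.7 CPM, and p2 was at 259 CPM. *Lyz2*, lysozyme, was detected in 4 early and 19 late cells at 17000 counts (5 and 20 unthinned) and stood at 32.9 and 155 CPM, a log2 ratio of 2.23 (1.63 to 2.88). Its early runs were 67.1, 3.98 and 23.2 CPM and its late runs 139, 188 and 148 CPM, without overlap. Of 33 erythroid and megakaryocyte genes 4 were tested and 1 was called higher in late (background 6.4%), with a median of 0.14. *Alas2*, an erythroid enzyme of haem synthesis, had 0 counts in both groups.

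The EMP and LMP lists are earlier published signatures that the study used, while its EMP-fate list and common HE signature were drawn from cells of the study and are no independent evidence of direction. Of the 90 EMP genes 30 were tested, and the median was 0.36. Of these, 9 were called higher in late (background 6.4%) and 3 higher in early (background 7.01%). The 3 were *Grb10*, *H19* and *Vamp5*, of which the first pair are imprinted genes of growth. Of the 67 LMP genes (lympho-myeloid progenitors) 12 were tested, with a median of -1.14. Of these, 6 were called higher in early (background 7.01%) and 1, *Mycn*, higher in late (background 6.4%). The 6 include *Emcn* and *Ets1*, which the endothelial list also holds. Of the 8 EMP-fate genes 7 were in the table, 3 were tested and none was called (background 6.4% and 7.01%), with a median of 0.84. The values were 695 and 1242 CPM for *Hsp90aa1*, 536 and 982 CPM for *Ncl* and 444 and 637 CPM for *Eno1b*. The list summed to 1719 CPM in early, 2916 CPM in late and 4141 CPM in p2 cells. Of the 8 genes of the common HE signature 2 were tested, and *Mycn* was called higher in late (background 6.4%), with a median of 0.99.

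Growth and cycle genes differed less. Of 26 S phase genes 21 were tested and 4 were called higher in late (background 6.4%). They were *Mcm3* and *Mcm7* of the replicative helicase, the licensing factor *Cdt1* and the uracil glycosylase *Ung*. Their list had a median of 0.42. *Mcm3* was at 99.9 and 267 CPM, detected in 20 early and 24 late cells at 17000 counts (22 and 24 unthinned), with a ratio of 1.42 (1.05 to 1.80). Of 28 G2/M genes 18 were tested and 2, the mitotic kinases *Aurka* and *Bub1*, were called higher in early (background 7.01%), with a median of -0.22. That median was 0.52 in run 1 and 0.06 within E9.0 cells. Of 46 splicing factors 35 were tested and 1, *Celf2*, was called higher in late (background 6.4%), at 43.5 and 117 CPM. Of the 35, 31 had a ratio above 0. The list median was 0.39, against 0.10 for the genes tested. Of 20 glycolysis genes 11 were tested and none was called (background 6.4% and 7.01%), with a median of 0.27. Of 25 BMP and TGF-beta genes 5 were tested, with a median of -0.86. *Id2*, a BMP target, was called higher in early (background 7.01%), with 48 and 19 counts. Without its highest early cell the log2 ratio of *Id2* was -0.54, and within E9.0 cells it was at 0 CPM in early and 15.5 CPM in late cells. None of the 185 ribosomal protein genes tested was called (background 6.4% and 7.01%), and their median was 0.17.

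**Figure D4:**
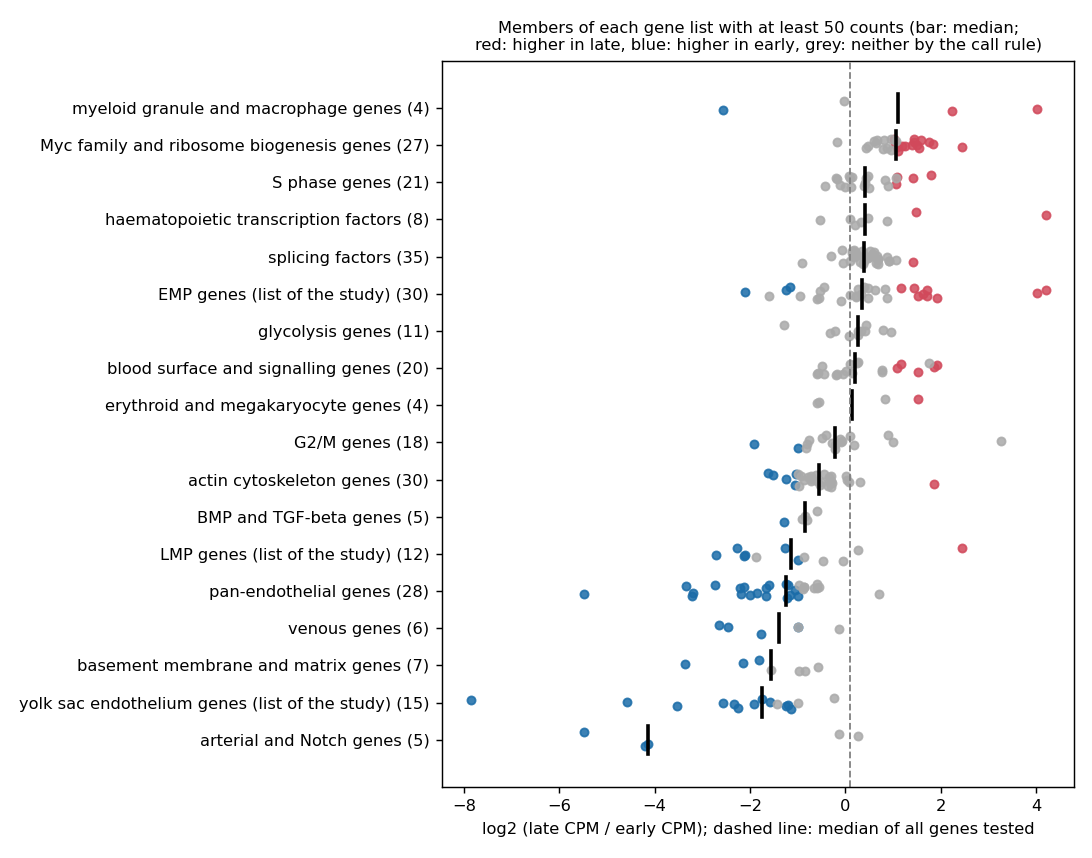
Log2 ratio of late over early CPM (x axis) of the tested members of each list with at least 4 of them (rows, number tested in brackets). Points are genes, bars list medians and the dashed line the median of the 4278 genes tested. Endothelial, yolk sac, venous and matrix lists sit left of that line and the Myc and ribosome biogenesis list, with a median of 1.05, sits right of it.

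Some of the genes of largest ratio belonged to none of these lists. In late cells they included *Exosc2*, a subunit of the RNA exosome, at 35.3 and 180.3 CPM (ratio 2.35, 1.78 to 2.97) and detected in 8 early and 21 late cells at 17000 counts (11 and 21 unthinned). *Usp5*, a deubiquitinase, was at 29.4 and 149 CPM, and *Slc50a1*, a sugar transporter, at 32.9 and 145 CPM. *Trmt2a*, a tRNA methyltransferase, was at 39.95 and 168 CPM, and *Guk1*, guanylate kinase, at 44.7 and 156 CPM. *Gfer*, a sulfhydryl oxidase of mitochondria, was at 51.7 and 159.6 CPM. *Trmt2a*, *Coro1a* and *Nop56* overlap protein-coding genes on the other strand in the reference annotation. The cDNA carries no strand, so reads in such an overlap cannot be told apart.

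In early cells the largest ratios outside the lists were those of *Anxa2*, *Plagl1*, *Cemip2*, *Nrep*, *Nectin2*, *Klhl4* and *Copg2*. *Nrep* was the most abundant: 0 to 12126 CPM in early cells (median 1633) and 0 to 1701 in late cells (median 0). Its summed levels were 2351 and 213 CPM, a log2 ratio of -3.46 (-3.69 to -3.24), and p2 was at 4.10 CPM. The late level lay in 1 run, with 36.6, 30.6 and 452 CPM, and in E10.5 cells, at 501 CPM against 5.17 CPM at E9.0. *Anxa2*, a membrane-binding annexin, had 173 counts in 16 early cells and 6 counts in 2 late cells. *Plagl1*, an imprinted zinc finger factor, had 143 and 6 counts. *Cemip2*, a hyaluronidase of the cell surface, had 171 counts in 20 early cells and 10 counts in 1 late cell. *Nectin2*, an adhesion protein, was at 159.8 and 14.6 CPM, and *Klhl4* had 129 and 12 counts. *Copg2*, a coat protein gene, was detected in 25 early and 13 late cells at 17000 counts (25 and 14 unthinned), at 686 and 78.0 CPM. It overlaps *Mest* on the other strand, so part of its counts may belong to that gene.

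The size of these differences varied between E9.0 and E10.5 cells. Cells of the 2 stages come from different embryos, so stage cannot be told apart from embryo. The endothelial list went from 11626 to 2376 CPM within E9.0 cells and from 11725 to 4730 CPM within E10.5 cells, with list medians of -2.24 and -1.17 on the log2 scale. The yolk sac endothelium list went from 5409 to 778 CPM and from 5159 to 2241 CPM. The ribosome biogenesis list was higher at E9.0 in both groups, at 3994 and 8364 CPM, than at E10.5, at 2788 and 5293 CPM. Early cells of the 2 stages thus had close endothelial sums, and the late cells of E10.5 had the higher ones of the late groups. Within HE_Runx1 cells alone the medians of the endothelial and ribosome biogenesis lists were -1.27 and 1.04, close to those over both sorts. The early E9.5 group held 2 cells, too few for a comparison. At E9.5 the endothelial list was at 8798 CPM in early and 4274 CPM in late cells. The ribosome biogenesis list was at 6209 and 7292 CPM. The yolk sac endothelium list went the other way than at E9.0 and E10.5, at 837 and 1023 CPM.

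The same lists were read from early to late arterial yolk sac haemogenic endothelium, with 23 and 29 cells, over the members tested in both. The medians for the plexus and the arterial cells were -1.25 and -0.99 for 27 endothelial genes and 1.05 and 0.27 for 27 Myc and ribosome biogenesis genes. For 7 matrix genes they were -1.56 and -0.77. In other lists the arterial cells had the larger shift. The medians were 0.51 and 0.77 for 14 blood surface and signalling genes and 0.39 and 0.59 for 23 EMP genes. For 3 BMP and TGF-beta genes they were -0.86 and -1.48. The difference between the trajectories was not tested.

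Isoform use was compared as the share of a gene's counts that an isoform took. Of 845 genes with at least 2 isoforms and enough counts, 83 had an isoform whose share differed by at least 10 percentage points in the same direction in each run (9.82%). They held 118 such isoforms, 56 with a higher and 62 with a lower share in late. Of these 80 were protein-coding, with 40 in each direction, and 19 were retained introns, 7 higher and 12 lower in late. Protein-coding transcripts took 51.9% of the early and 49.1% of the late counts.

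**Figure D5:**
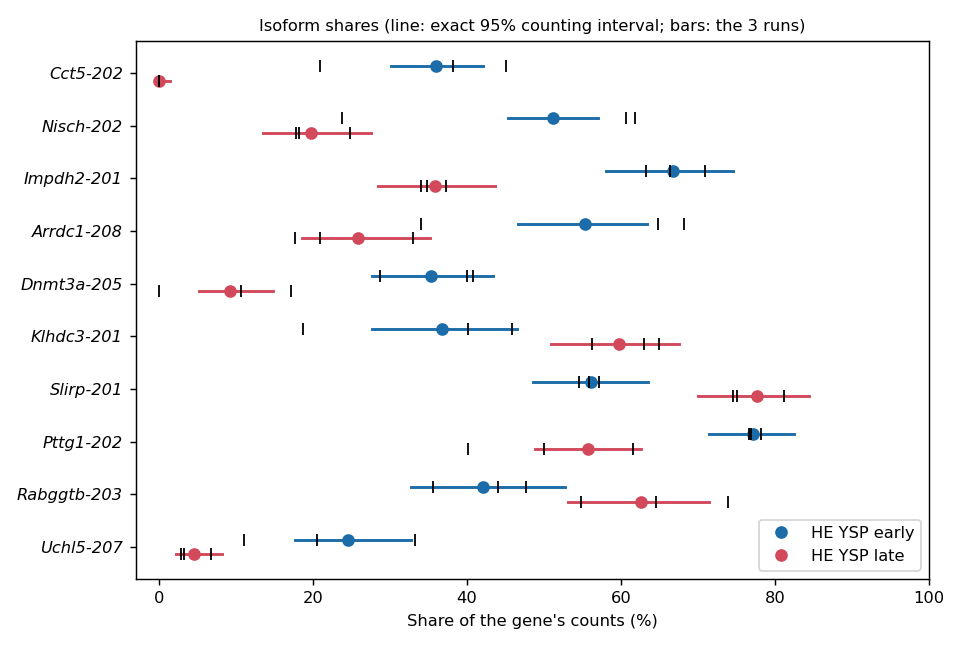
Share of the gene's counts (x axis, percent) taken by the isoform of largest difference in each of 10 genes (rows), in early and late HE YSP. Points are summed shares, lines exact 95% counting intervals and black bars the 3 runs. Impdh2-201 goes from 66.8% to 35.9%, and Slirp-201 from 56.1% to 77.7%, with the runs of each group close together.

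*Impdh2*, the rate-limiting enzyme of guanine nucleotide synthesis, and *Slirp*, an RNA-binding protein of mitochondria, had runs close together, and a stretch in which the isoforms differ is shown for each. They come from GENCODE M21 transcripts of build GRCm38, matched by transcript identifier and length. Capitals mark bases that the other isoform lacks, with 20 shared bases on either side. Impdh2-202 skips a coding exon of 75 bases at chr9:108561783-108561857 (plus strand). In *Slirp*, on the plus strand, Slirp-203 extends an exon by 24 bases at chr12:87447599-87447622 and Slirp-201 starts the next exon 7 bases earlier, at chr12:87449293-87449299, both within the coding sequence.
Impdh2-201: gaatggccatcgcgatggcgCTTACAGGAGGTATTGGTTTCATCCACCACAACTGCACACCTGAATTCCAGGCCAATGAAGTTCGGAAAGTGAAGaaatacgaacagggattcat
Impdh2-202: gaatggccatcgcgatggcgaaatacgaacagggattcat
Slirp-203: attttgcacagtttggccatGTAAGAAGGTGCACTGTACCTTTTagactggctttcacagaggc
Slirp-201: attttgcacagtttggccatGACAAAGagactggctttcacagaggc
Impdh2-201 took 66.8% of 135 early counts (58.0 to 74.5 by the exact binomial interval) and 35.9% of 162 late counts (28.4 to 43.7). Its runs were 70.9%, 66.4% and 63.3% in early and 34.1%, 34.8% and 37.2% in late cells. Impdh2-202, the shorter transcript (840 against 1858 bases), took 28.8% and 49.8%. The share of Impdh2-201 had the same direction at E9.0 (62.7% and 37.04%) and at E10.5 (67.3% and 38.2%). Slirp-201 took 56.1% of 180 early counts (48.5 to 63.5) and 77.7% of 140 late counts (70.1 to 84.4), with runs of 54.5%, 55.8% and 57.2% against 74.5%, 75.1% and 81.2%. Slirp-203 took 42.8% and 22.3%. Neither gene's runs overlapped between the groups.

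The largest shift rested on fewer cells. Cct5-202, a retained-intron transcript of a chaperonin subunit, took 36.0% of 264 early counts and 0% of 244 late counts (interval up to 1.5%). Its 95 early counts came from 8 cells, and 1 cell held 34.7% of them. Counted as a mean over cells with at least 3 counts of the gene, its share was 16.3% in early and 0% in late cells. Uchl5-207, a retained-intron transcript, took 24.5% and 4.59%, and 1 early cell held 59.1% of its early counts. Within E9.0 cells it took 0% and 7.81%, so its direction turned there. Dnmt3a-205, from the gene of a DNA methyltransferase, took 35.4% and 9.26%, and 7 early and 4 late cells held it. Pttg1-202, from the securin gene, took 77.2% and 55.7%. Rabggtb-203, annotated for nonsense-mediated decay, went from 42.1% to 62.6% of the counts, and Arrdc1-208, of the same class, went from 55.4% to 25.9%. Klhdc3-201 took 36.7% and 59.8%. Nisch-202 took 51.2% and 19.8% over both groups and 24.4% and 33.02% within E9.0 cells, so its direction turned there.

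*Runx1* isoforms could not be compared, since early cells held 1 count. Runx1-202 took 11 of the 16 late counts, and 81.8% of those 11 came from 1 cell. Isoform diversity was measured as the entropy of isoform shares within a cell, scaled from 0 to 1. The median difference of late minus early over 2427 genes was -0.00013, and 47.1% of the genes were higher in late. At 17000 counts per cell it was -0.0014 over 1590 genes. These differences were smaller than those between runs, which ran from -0.0018 to 0.0042.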

How the data were processed

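Transcript tables of 221 single cells were used. The deposited values are estimated counts, made by the authors with NanoCount from nanopore reads aligned with minimap2 2.26 to GENCODE transcripts. The deposited TPM are the same counts scaled to 1000000 per cell without a length term. The study's nanopore methods name the GENCODE release by number, without a genome build. Its mm10 reference is named for the gene counts from short reads, and its reporting summary also lists GRCm39 references. Isoform counts were summed per gene identifier (278369 transcripts, 78317 genes) and over the cells of a group, and CPM is that sum scaled to a total of 1000000. The depth of each group was 850978 early and 820908 late counts. PCR copies are not independent molecules, so Poisson, binomial and ratio intervals (95%) cover counting error only. No doublet caller was run, no cDNA library was named more than once, and no pair of cells held equal values. A group with no count was set to a floor of 3 counts in a ratio.

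Genes were tested from 50 counts and called at 2-fold in the same direction in each of 3 runs (0.5 counts added). Isoforms needed 100 counts of the gene per group and 10 per group and run. Named genes were members of the lists that were called, the genes of the sort and trajectory, and the 12 protein-coding genes of largest ratio in each direction with at least 100 counts and 8 cells in the higher group. For isoforms they were the 10 genes of largest difference and the *Runx1* isoforms with at least 10 counts. Ribosomal protein genes and processed pseudogenes were left out of these rankings. 1 called list member is not reported here. Other genes of the lists are named with values and were chosen after the values were seen. The authors named DESeq2 1.40.2 and R 4.3.0 in their processing notes, and no count model was used here. The members and lists were chosen with earlier results of these data known. The list of imprinted genes and the runs that leave out each cell were added after seeing the data. Thinned counts were drawn per gene from rounded counts. Alternatives covered the library limit, the count minimum, scaling, thinning, stage, sort, runs and single cells. Python 3.11.15, numpy 2.4.6, scipy 1.17.1 and pandas 2.3.3 were used, and the call rule was tested on simulated counts.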

Additional observations from a re-analysis of the deposited data

How the results depend on the processing

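No paired analysis was possible because the replicate numbers only name cells and no label ties an early cell to a late cell. The counts of 274 genes higher in late and 300 higher in early became 117 and 128 in E9.0 cells, 120 and 195 in E10.5 cells, 953 and 831 with at least 10 counts, 42 and 71 with at least 200 counts, and 145 and 157 in cells thinned to 17000 counts. These settings hold fewer or more cells, counts or genes by construction. Within 1 run the counts were 117 higher in late for run 2, and 181, 186 and 162 higher in early for runs 1, 2 and 3. With 1 run left out they were 246 to 319 and 261 to 273. Under median-of-ratios scaling, which moves the ratios by 0.096, they were 218 and 355. The 83 genes with a changed isoform became 20 with at least 200 counts, 20 in E9.0 cells, 35 in E10.5 cells and 51 in HE_Runx1 cells. Within E9.0 cells Nisch-202 differed by 8.57 and Uchl5-207 by 7.81 percentage points, both in the other direction. The median entropy difference was 0.0024 with TPM and 0.0042 in run 2, also in the other direction, and the cause was not tested. The 105 called genes with listed alternatives kept their direction in the 1993 values computed. No value was computed where both groups had at most 3 counts. *Id2*, at 0 and 15.5 CPM within E9.0 cells, is such a case. The call rule already asks for the same direction in each run, so agreement in the settings by run follows from it. The other settings re-use the same cells, so the 1993 values are no independent evidence of direction. Of all called genes, 251 of 274 and 277 of 300 kept their direction within E9.0 cells. Of 414 alternative list medians 11 had the other sign, all in the sex-linked, G2/M, S phase and erythroid and megakaryocyte lists, whose main medians were -0.15, -0.22, 0.42 and 0.14. Of the 33 transcription factors listed, 25 did not reach 50 counts, and 7 had 0 counts in both groups. Whether depth or absent expression lies behind this was not tested.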

Other observations

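Imprinted growth genes were lower in late cells. This list of 20 genes was made after the values were seen, so it gets no test and its direction is a description. Of the 20, 10 were tested, and the median log2 ratio was -1.93. Of these, 8 were called higher in early (background 7.01%) and 0 higher in late (background 6.4%). The list summed to 13197 CPM in early, 4355 CPM in late and 938 CPM in p2 cells. *Igf2*, a fetal growth factor, ran from 767 to 30547 CPM in early cells (median 5735) and from 455 to 11396 CPM in late cells (median 1681), so the groups overlapped. Its summed levels were 8738 and 2787 CPM, a log2 ratio of -1.65 (-1.72 to -1.58), and the runs were 13161, 6513 and 6219 CPM against 2050, 2625 and 3450 CPM. *H19*, the noncoding RNA beside it, was at 1402 and 626 CPM, with 1627 and 186 CPM within E9.0 cells and 1407 and 903 CPM within E10.5 cells.

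*Mest*, a paternally expressed gene, was detected in each early cell, from 171 to 2908 CPM (median 844), and in 13 of 24 late cells, up to 452 CPM, with the same numbers of cells at 17000 counts. Its summed levels were 1122 and 143 CPM, a log2 ratio of -2.98 (-3.27 to -2.70). *Copg2*, also on this list and called, overlaps *Mest* on the other strand, so the counts of these genes cannot be fully told apart. *Grb10*, an adaptor that restrains growth factor signalling, was at 184 and 42.6 CPM, and *Igf2r*, the receptor that clears IGF2, had 50 and 9 counts. *Cdkn1c*, a cyclin-dependent kinase inhibitor, had 38 and 12 counts. *Gnas* was not called, at 664 and 574 CPM. *Malat1* took 0.492% of early, 0.306% of late and 0.207% of p2 counts, and the cell ranges of early (0.114% to 0.940%) and late (0.105% to 0.664%) overlapped.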
